A study of Mus musculus with 8 samples.

Results

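A set of 10 genes of the glucocorticoid response was followed in hippocampal RNA from mice that lack SAP97 in the brain and from their controls. The genes were picked by symbol out of the 25834 genes counted, because Sgk1 and Tsc22d3 were lower in SAP97-cKO hippocampus. The others are Fkbp5, Ddit4, Zbtb16, Klf9, Nr3c1, Hsd11b1, Mt1 and Mt2. SAP97 is a synaptic scaffold protein encoded by Dlg1. SAP97-cKO mice were Nestin-cre+/-; SAP97fl/fl, so Cre was driven by the Nestin promoter, which is active in the precursors of neurons and of most glia, and recombination was not restricted to the hippocampus. Controls were littermates that were wild-type or carried Nes-cre+/- or SAP97fl/fl alone, and which of these genotypes each control library came from was not stated. All were male, with 4 mice per genotype and 1 library per mouse. The age of these mice, the hour at which tissue was taken and the level of circulating corticosterone were not stated either.

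The 8 libraries held 37388177 to 37426572 counted reads each, a range this narrow because the authors resampled the reads to a common depth. All 10 genes passed the filter on low counts, as did 16251 genes in all. Dlg1 was at 4127, 4549, 3982 and 4690 normalized read counts in the controls and at 2353, 3064, 2143 and 2008 in SAP97-cKO, where its mean was 55.2% of control. Every library labelled SAP97-cKO was below every library labelled control. Over all genes tested the median log2 fold change was -0.012, and 52.8% of genes had a value below 0.

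Corticosterone, the main glucocorticoid of mice, enters cells and binds the glucocorticoid receptor, which is held ready in the cytosol by Hsp90 and its co-chaperones. The bound receptor moves to the nucleus and turns on genes that carry glucocorticoid response elements, short inverted repeats of the hexamer TGTTCT. The hippocampus is rich in this receptor and in the mineralocorticoid receptor, which binds the same hormone, and it takes part in the feedback that limits hormone release. Among the 10 genes, Nr3c1 encodes the receptor itself and Hsd11b1 the enzyme that regenerates active hormone inside cells. The rest are genes that the bound receptor induces.

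The sequences ahead of the transcription starts of Sgk1 and Tsc22d3 are shown because these are the genes that were lower in SAP97-cKO, and those of Mt1 and Mt2 because the metallothioneins varied together between mice. The RefSeq promoter table for GRCm38.p6 held 15 windows for 8 of the 10 genes, of which 6 belonged to alternative starts of Sgk1. Each window runs from 250 bases before a start to 50 after it, was searched on both strands, and is printed here up to the start. Capitals mark GNACANNNTGTNC and TGTTCT on either strand in Sgk1 and Tsc22d3, and the core of the metal response element (TGCGCNC or TGCACNC, either strand) in Mt1 and Mt2. The Sgk1 sequence is chr10:21993640-21993889, plus strand, the Tsc22d3 sequence chrX:140600523-140600772, minus strand, the Mt1 sequence chr8:94178839-94179088, plus strand, and the Mt2 sequence chr8:94172368-94172617, plus strand.
Sgk1: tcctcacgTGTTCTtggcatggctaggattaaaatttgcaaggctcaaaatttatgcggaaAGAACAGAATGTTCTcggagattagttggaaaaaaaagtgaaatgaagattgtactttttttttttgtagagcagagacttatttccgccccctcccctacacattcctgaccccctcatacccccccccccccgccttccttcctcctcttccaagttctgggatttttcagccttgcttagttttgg
Tsc22d3: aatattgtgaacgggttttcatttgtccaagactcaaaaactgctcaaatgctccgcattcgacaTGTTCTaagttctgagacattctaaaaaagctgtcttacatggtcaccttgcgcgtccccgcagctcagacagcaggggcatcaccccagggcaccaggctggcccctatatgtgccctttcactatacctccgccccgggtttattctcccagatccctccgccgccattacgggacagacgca
Mt1: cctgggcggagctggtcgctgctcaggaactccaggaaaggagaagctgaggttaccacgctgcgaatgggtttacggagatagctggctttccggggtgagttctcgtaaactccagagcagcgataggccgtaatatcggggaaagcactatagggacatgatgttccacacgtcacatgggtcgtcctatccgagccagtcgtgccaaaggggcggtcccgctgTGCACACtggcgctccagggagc
Mt2: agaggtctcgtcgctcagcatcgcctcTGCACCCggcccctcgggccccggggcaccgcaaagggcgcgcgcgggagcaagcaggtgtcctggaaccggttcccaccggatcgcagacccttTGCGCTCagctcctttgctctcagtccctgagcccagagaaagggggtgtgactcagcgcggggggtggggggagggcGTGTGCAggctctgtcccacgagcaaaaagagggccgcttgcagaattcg

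The Sgk1 window held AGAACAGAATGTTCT, a match to the full palindrome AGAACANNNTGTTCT, on chromosome 10 from 21993701 to 21993715. The match ended 175 bases before the start at 21993890 and 951 bases before the start at 21994666. The other Sgk1 starts lie ahead of the match. This palindrome occurred in 3 of 32851 windows, or 0.00913%, and in 0.0111% of genes. It contains a match to the looser GNACANNNTGTNC, which 0.475% of windows held, and both of its arms match TGTTCT, which 19% of windows held. The other Sgk1 windows held no match to either palindrome, and those of the starts at 21882184 and 21992223 held the hexamer. The Tsc22d3 window ahead of the start at 140600522 held a TGTTCT and no match to either palindrome. The other Tsc22d3 windows held neither the palindromes nor the hexamer. The Mt1 window held a looser match, GGACATGATGTTC, on chromosome 8 from 94178995 to 94179007. The windows of Fkbp5, Klf9, Ddit4 and Hsd11b1 held no match to the palindromes or the hexamer. Metal response cores were found 3 times in the Mt1 window and 4 times in the Mt2 window, where the ones after the start lie beyond the printed bases. At least 3 cores were present in 1.97% of windows and at least 4 in 0.517%, while 25.7% held at least 1. The counts are summed over all transcripts of a gene, so no change could be assigned to one of the Sgk1 or Tsc22d3 starts.

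Sgk1 and Tsc22d3, which chose the set, were lower in every SAP97-cKO library than in every control library. Sgk1 encodes a kinase that regulates ion channels and transporters and lies on chromosome 10 (GRCm38, 21882184 to 21999903). It was at 3926, 4425, 3685 and 3528 normalized read counts in the controls and at 2574, 2527, 2733 and 2694 in SAP97-cKO. The means were 3891 ± 392 and 2632 ± 97.4 (SD, n = 4 each), so SAP97-cKO was at 67.6% of control, a log2 fold change of -0.56 (SE 0.077). Tsc22d3 encodes GILZ, a leucine zipper protein that restrains inflammatory transcription factors, and lies on the X chromosome (140539528 to 140600659). It was at 3498, 2999, 3176 and 3600 normalized read counts in the controls and at 2564, 2011, 2153 and 1947 in SAP97-cKO. The means were 3318 ± 279 and 2169 ± 277, or 65.4% of control, a log2 fold change of -0.61 (SE 0.097). As bulk tissue was sequenced, fewer cells of a type and less RNA per cell cannot be told apart.

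In the fit over all 16251 genes, these 2 of the 10 genes passed the false discovery rate (FDR) threshold of 0.25 in the lower direction, where 0.283% of all genes did, and 0 passed in the higher direction, where 0.0123% did. The adjusted p of the other 8 (edgeR quasi-likelihood test, Benjamini-Hochberg over all genes) ran from 0.597 to 0.989. The genotypes did not overlap in Sgk1 and Tsc22d3 alone of the 10, and 3.47% of all genes had every SAP97-cKO library below every control library. Because the contrast was known when the genes were picked, these counts are descriptive. Of the 10 log2 fold changes 9 were below 0, with a median of -0.13, against 52.8% and -0.012 over all genes. The calls depended on the libraries. Without control 2, SAP97-cKO 3 or SAP97-cKO 4, no gene of the table passed the threshold (1403, 1259 and 1167 genes at an unadjusted p under 0.05), though Sgk1 kept a log2 fold change of -0.61 to -0.50 and Tsc22d3 of -0.70 to -0.56 in every fit with a library left out.

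**Figure D1:**
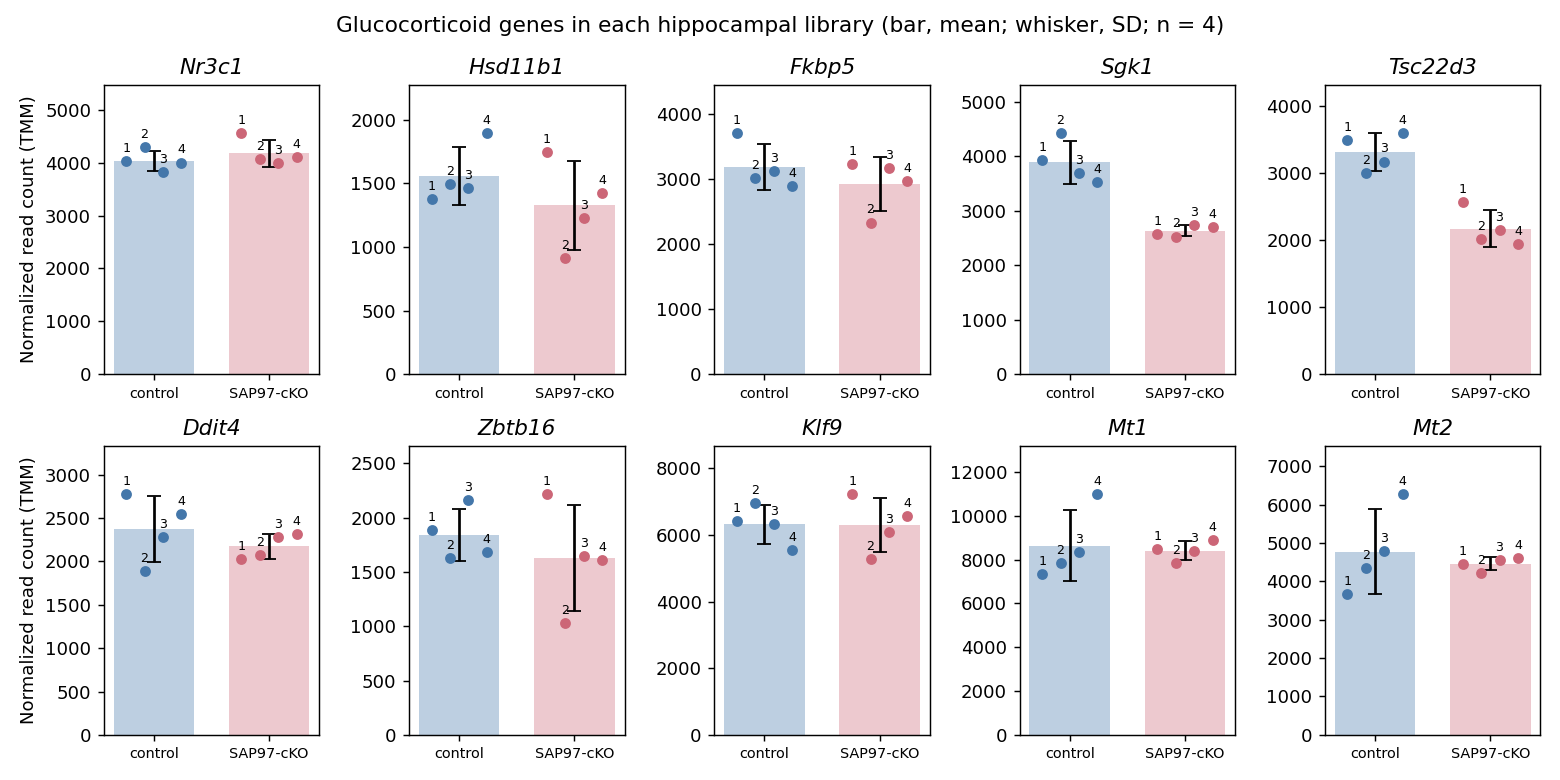
Normalized read counts (y axes, each starting at 0) of the 10 genes in the 4 control and 4 SAP97-cKO libraries. Points are libraries, numbered by replicate, and bars are the mean with the SD. Sgk1 and Tsc22d3 are the panels in which the genotypes do not overlap.

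The receptor and the enzyme that supplies it with hormone are the regulators in the set. Nr3c1 was at 4026, 4291, 3821 and 4004 normalized read counts in the controls and at 4560, 4070, 3992 and 4100 in SAP97-cKO. The means, 4035 ± 194 and 4181 ± 257, differed by a log2 fold change of 0.051 (SE 0.066), the only value above 0 among the 10 genes, and 0.014 to 0.082 with a library left out. Hsd11b1, on chromosome 1 (193221634 to 193264075), was at 1378, 1493, 1461 and 1895 in the controls and at 1743, 914, 1229 and 1423 in SAP97-cKO, with a log2 fold change of -0.23 (SE 0.18). It was -0.088 without SAP97-cKO 2, -0.12 without control 4 and -0.38 without SAP97-cKO 1. Its control and SAP97-cKO libraries overlapped, and its spread was wide, with a coefficient of variation (SD over mean) of 14.8% in controls and 26.2% in SAP97-cKO. Hsd11b1 overlaps Lamb3 and an antisense transcript, and whether reads were counted by strand is not given in the sources used here, so part of its count may belong to these. Fkbp5 and Mt2 overlap antisense transcripts as well.

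The other induced genes did not pass the threshold, and in each of them the genotypes overlapped. On GRCm38 they lie on chromosomes 17 (Fkbp5, 28399094 to 28517527), 10 (Ddit4, 59949669 to 59951834), 9 (Zbtb16, 48654297 to 48836222), 19 (Klf9, 23141226 to 23168134) and 8 (Mt2, 94172664 to 94173568, and Mt1, 94179082 to 94180327). Fkbp5, a co-chaperone that lowers the hormone affinity of the receptor and is itself induced by it, was at 3705, 3018, 3124 and 2898 normalized read counts in controls and at 3230, 2331, 3168 and 2964 in SAP97-cKO. Its log2 fold change was -0.12 (SE 0.11), and -0.029 (SE 0.092) without SAP97-cKO 2 or -0.043 (SE 0.11) without control 1. Ddit4, an inhibitor of mTORC1 signalling, was at 2780, 1886, 2286 and 2552 in controls and at 2030, 2077, 2286 and 2313 in SAP97-cKO, for a log2 fold change of -0.13 (SE 0.11), which was -0.042 without control 1 and -0.22 without control 2. All 4 SAP97-cKO values of Ddit4 lay inside the range of the controls, as did 3 of the 4 values of Fkbp5.

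Zbtb16, a zinc finger repressor, was at 1888, 1628, 2160 and 1686 normalized read counts in controls and at 2218, 1029, 1650 and 1612 in SAP97-cKO. Its highest and its lowest library were both SAP97-cKO, and its log2 fold change of -0.18 (SE 0.19) became -0.011 (SE 0.13) without SAP97-cKO 2, -0.079 without control 3 and -0.36 (SE 0.17) without SAP97-cKO 1. Klf9, a transcription factor induced by glucocorticoids and by thyroid hormone, was at 6416, 6949, 6337 and 5549 in controls and at 7230, 5285, 6100 and 6557 in SAP97-cKO. With a log2 fold change of -0.0045 (SE 0.10) it had no stable direction, and was above 0 with DESeq2 scaling, in edgeR as well as in DESeq2, or without the low-count filter.

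Mt1 and Mt2 encode metallothioneins, small proteins that bind zinc and copper and are induced by metals as well as by glucocorticoids. Mt1 was at 7328, 7870, 8351 and 11006 normalized read counts in controls and at 8499, 7838, 8384 and 8917 in SAP97-cKO, for a log2 fold change of -0.039 (SE 0.12). Mt2 was at 3671, 4339, 4785 and 6279 in controls and at 4455, 4214, 4557 and 4619 in SAP97-cKO, for a log2 fold change of -0.096 (SE 0.14). Control 4 was the highest library for both genes, and without it the log2 fold changes were 0.10 (SE 0.065) for Mt1 and 0.066 (SE 0.085) for Mt2. The SAP97-cKO libraries lay close together, with coefficients of variation of 5.28% for Mt1 and 4.00% for Mt2, against 18.9% and 23.2% in the controls.

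**Figure D2:**
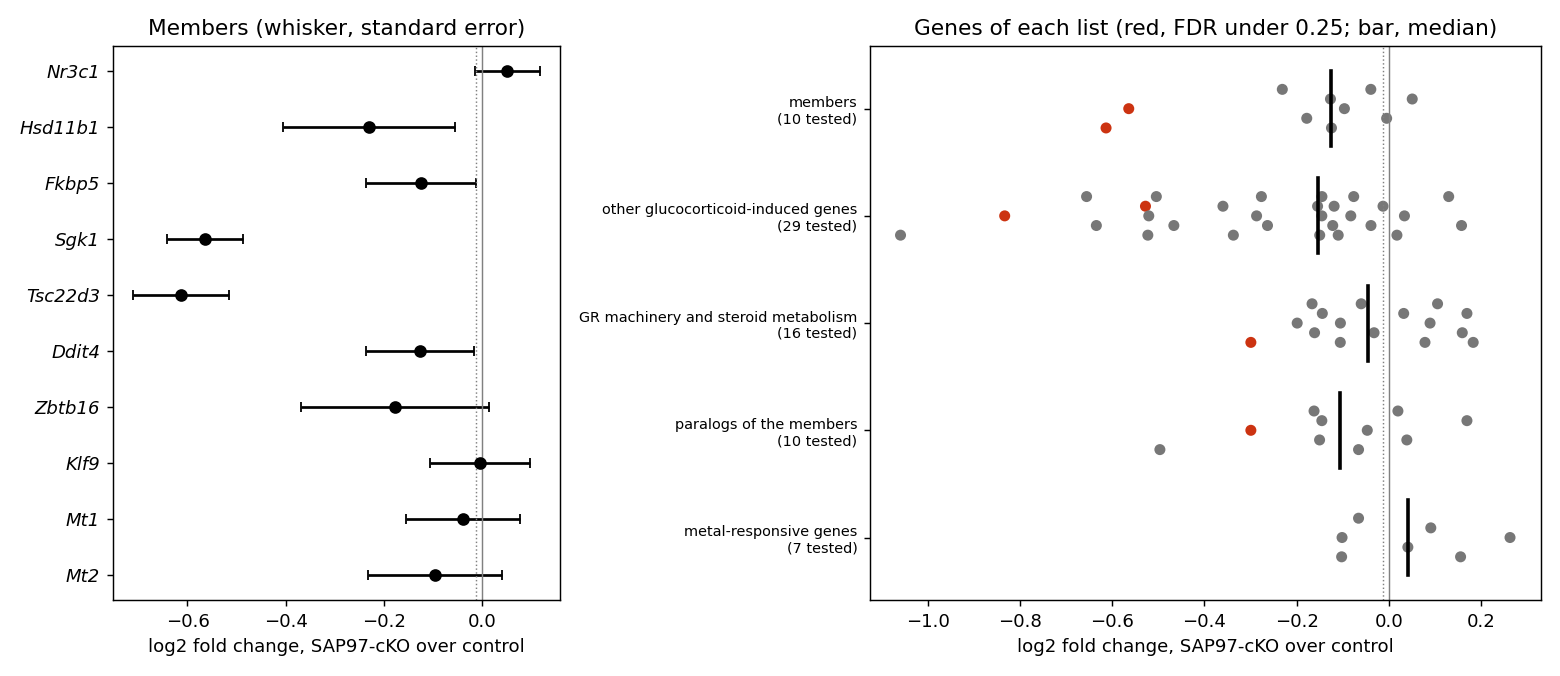
Log2 fold change of SAP97-cKO over control (x axis) for the 10 genes, with a bar of 1 SE on either side, and for the genes of 4 glucocorticoid and metal lists as points with their median. Red marks an FDR under 0.25, and the values of Sgk1 and Tsc22d3 lie at -0.56 and -0.61.

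Per length of transcript the metallothioneins stood far above the other 8 genes in both genotypes. The controls had 217 ± 50.3 RPKM (read counts scaled by exon length and library size) for Mt2 and 185 ± 35.04 for Mt1, which differed by less than the spread between libraries. Ddit4 at 36.2 ± 5.85 RPKM and Klf9 at 35.1 ± 3.21 followed, again within their spread. Sgk1 at 21.2 ± 2.14 RPKM and Tsc22d3 at 20.4 ± 1.72 differed by less than their spread in controls and lay above Nr3c1 at 14.0 ± 0.674. In SAP97-cKO, Sgk1 at 14.4 ± 0.532 RPKM and Tsc22d3 at 13.4 ± 1.71 lay beside Nr3c1 at 14.6 ± 0.894. Hsd11b1, Zbtb16 and Fkbp5 were lowest in controls, at 9.80 ± 1.45, 9.32 ± 1.22 and 9.001 ± 1.01 RPKM, and neighbours in this order did not differ beyond their spread. Among relatives of these genes, named after their values were seen, the mineralocorticoid receptor gene Nr3c2 was at 30.4 ± 4.44 RPKM in controls and 34.2 ± 7.92 in SAP97-cKO, above Nr3c1 in both. Hsd11b2, whose enzyme inactivates the hormone, had 2 reads over the 8 libraries.

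The rule that chose the genes did not use variation between mice of a genotype directly. Sgk1 and Tsc22d3 were, however, among the genes the study listed from these libraries. Such a call depends on that variation, so the spread of these genes is not independent of the choice. After each genotype's mean was taken off, Nr3c1 was among the steadiest genes measured, with a within-genotype SD of 0.078 on the log2 scale, at the 10.5th percentile of all genes tested. Sgk1 (0.107) lay at the 23.6th percentile and Tsc22d3 (0.152) at the 43.3rd. Hsd11b1 (0.311) and Zbtb16 (0.348) were the most variable, at the 76.7th and 80.6th percentiles, where the median of all genes was 0.171. These percentiles are over genes of all read counts, and counting error is smallest for abundant genes. No comparison with genes of like read count was made.

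SAP97-cKO 2 and SAP97-cKO 1 had median deviations of opposite sign over the set, at -0.10 and 0.14 on the log2 scale. In Sgk1, Ddit4 and Mt2 both were below the mean of their genotype. Deviations within a genotype cancel out, so a library below the mean leaves others above it. SAP97-cKO 2 was below its genotype's mean for 10 of 10 genes, where 49.1% of all genes tested were. It was the lowest of all 8 libraries for 5 of them, Sgk1, Fkbp5, Zbtb16, Klf9 and Hsd11b1, where 11.7% of all genes were lowest in it. Each library is 1 mouse, and its genes are not replicates. SAP97-cKO 1 was the highest of all 8 libraries for 3 genes, Klf9, Nr3c1 and Zbtb16, where 13% of all genes were highest in it, and below its genotype's mean for 3, where 48.7% of all genes were. Control 4 was the highest for 4 genes (22.9% of all genes), and SAP97-cKO 4 was below its genotype's mean for 2 (50.3% of all genes). Among 29 other induced genes, described below, SAP97-cKO 2 was below its genotype's mean for 18, control 2 for 21 and SAP97-cKO 1 for 7. Sgk1 and Tsc22d3 were below every control library in both SAP97-cKO 1 and SAP97-cKO 2. Without SAP97-cKO 2 the log2 fold change was -0.54 (SE 0.087) for Sgk1 and -0.58 (SE 0.11) for Tsc22d3.

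**Figure D3:**
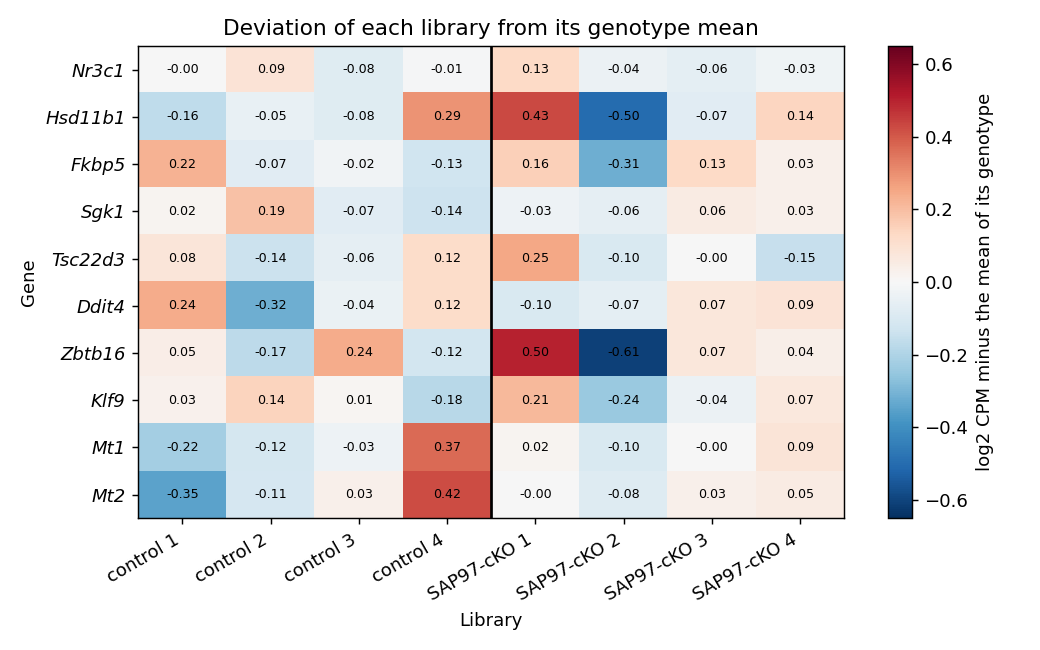
Deviation from the mean of its own genotype (log2 CPM, colour scale) for each of the 10 genes (rows) in each of the 8 libraries (columns). The SAP97-cKO 2 column is below 0 in 10 of 10 rows.

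Over the 45 pairs of genes, the within-genotype deviations were compared by Pearson's r with an exact two-sided permutation test over all reassignments of libraries within genotype, whose smallest p is 0.00174. Mt1 and Mt2 varied together, with r = 0.97 (p = 0.00347, adjusted p = 0.156 over the 45 pairs) and Spearman's rho = 0.90 (p = 0.00521, adjusted p = 0.234), both from exact permutation. Without the 2 libraries farthest from the median of Mt1, control 1 and control 4, r was 0.88. The genes are neighbours on chromosome 8 with 5513 bases between them. Their transcripts shared 0 runs of 31 bases, and the longest identical run was 20 bases. This was the only pair of the 45 that passed an adjusted p of 0.25.

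Fkbp5 and Zbtb16 had r = 0.79 (exact permutation p = 0.0469), which was 0.74 without the 2 farthest libraries, and failed the correction (adjusted p = 0.527). Hsd11b1 and Mt1 had r = 0.63 (exact permutation p = 0.0226), which failed it as well (adjusted p = 0.365). For Sgk1 and Tsc22d3, the pair lower in SAP97-cKO, r was -0.46 and rho -0.45, so no shared variation within genotype was detected over these 8 libraries (exact permutation p for r = 0.217, adjusted p = 0.735). Of the 45 values of r, 31 were positive, with a median of 0.21.

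**Figure D4:**
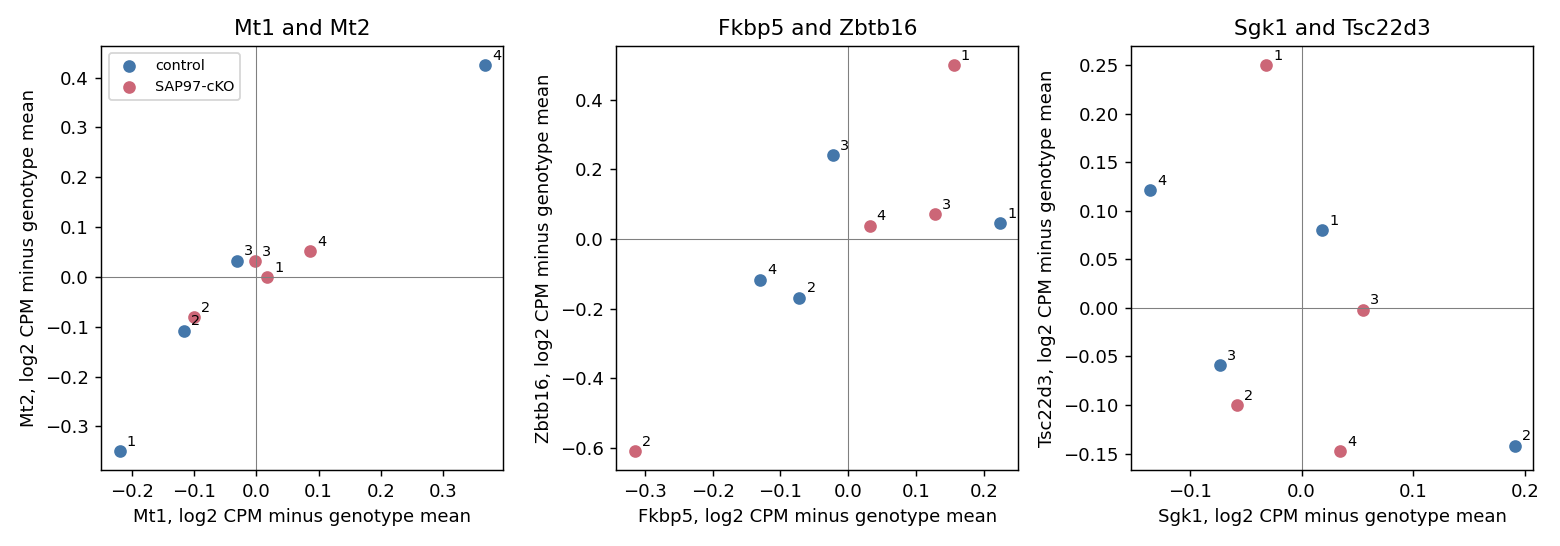
Deviation from the genotype mean (log2 CPM, both axes) for Mt1 and Mt2, Fkbp5 and Zbtb16, and Sgk1 and Tsc22d3. Each has 1 point per library, numbered by replicate and coloured by genotype. Mt1 and Mt2 lie along a line (r = 0.97) and Sgk1 and Tsc22d3 are scattered (r = -0.46).

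The genes whose deviations were most like those of Sgk1 over the 8 libraries, among 10409 genes ranked, were Spg7 (r = 0.98), Hdgfrp2 (r = 0.94) and Nedd9 (r = 0.93). For Tsc22d3 they were Mertk (r = 0.96), Amd1 (r = 0.96) and Cir1 (r = 0.95). These are the top of a long ranking over few libraries and are given as a description.

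Other genes of the pathway were read from lists drawn up with earlier results of these data known. Of 16 tested genes for the receptor's partners and for steroid metabolism, 1 fell, 0 rose and 9 were below 0, with a median log2 fold change of -0.046. Over all genes tested, 0.283% were called lower, 0.0123% higher and 52.8% were below 0. The one that fell was Fkbp4, the co-chaperone that favours the receptor's passage to the nucleus. It was at 5538 ± 193 normalized read counts in controls and 4501 ± 49.98 in SAP97-cKO, for a log2 fold change of -0.30 (SE 0.055, edgeR adjusted p = 0.195). Fkbp5, its counterpart, overlapped between the genotypes. Of 10 tested paralogs of the set, 1 fell, again Fkbp4, with 7 below 0 and a median of -0.11.

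Of 29 other tested genes that glucocorticoids induce, 2 fell and 0 rose, against 0.283% and 0.0123% of all genes. There were 25 below 0, against 52.8% of all genes, and the median log2 fold change was -0.15, against -0.012 over all genes. At an unadjusted p under 0.05 there were 10 of the 29, against 11.7% of all genes. Sult1a1, a sulfotransferase, was at 298 ± 46.7 normalized read counts in controls and 167 ± 23.1 in SAP97-cKO, for a log2 fold change of -0.83 (SE 0.15, edgeR adjusted p = 0.167). Gjb6, a gap junction protein of astrocytes, was at 2889 ± 347 and 2004 ± 276, a log2 fold change of -0.53 (SE 0.11), and passed narrowly (edgeR adjusted p = 0.2496). Klf15 and Txnip, named after their values were seen, had log2 fold changes of -0.26 (SE 0.078) and -0.52 (SE 0.11) and did not pass. The study itself listed Fkbp4, Gjb6, Sult1a1 and Txnip from these libraries, so their values here are not independent evidence of a direction. With a library left out, Fkbp4 passed in 3 of 8 fits, Gjb6 in 2 and Sult1a1 in 5, at log2 fold changes of -0.32 to -0.28, -0.62 to -0.44 and -0.89 to -0.72. Fkbp4 was lost without control 2, control 3, SAP97-cKO 2, SAP97-cKO 3 or SAP97-cKO 4, Gjb6 without any of these or control 4, and Sult1a1 without control 2, SAP97-cKO 3 or SAP97-cKO 4. Gjb6 also missed the threshold with DESeq2 size factors in edgeR (adjusted p = 0.2521) and with 10 counts required in every library (0.2642).

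Of the 7 metal-responsive genes, 0 passed the threshold in edgeR. There 1 had an unadjusted p under 0.05, where 11.7% of all genes did. DESeq2 called 1 of the 7 higher, and 445 of all 16251 genes. The median log2 fold change was 0.042. The smallest p belonged to the manganese exporter gene Slc30a10, at 644 ± 72.0 normalized read counts in controls and 773 ± 45.7 in SAP97-cKO, for a log2 fold change of 0.26 (SE 0.094). Next was the zinc importer gene Slc39a10, with a log2 fold change of 0.16 (SE 0.13), or 0.0072 (SE 0.090) without SAP97-cKO 2.

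Marker genes of 8 cell types were summed per library, in counts scaled to library size (CPM), beside these values. All lists had signal in every library, with no marker at 0. The neuronal sum (led by Camk2a, Snap25 and Syt1) was 11520 to 13114 in controls and 13125 to 14863 in SAP97-cKO, without overlap. The mural sum (Rgs5, Vtn and Pdgfrb) was 219.5 to 240.1 in controls and 133.8 to 219.0 in SAP97-cKO, also without overlap. Of the 10 neuronal and 8 mural markers, 0 passed the threshold in edgeR. The meningeal fibroblast list (Igf2, Dcn and Col1a2) had 5 of 10 genes called lower, where 0.283% of all genes were. Its sum ran from 248 to 456 in controls and from 157 to 252 in SAP97-cKO. The oligodendrocyte list (with Mbp and Mobp) had 0 of 10 genes past the threshold in edgeR, and its sum ran from 5738 to 9217 in controls and from 4471 to 8075 in SAP97-cKO. All 10 of its genes were nevertheless below 0, where 52.8% of all genes were, with a median log2 fold change of -0.47. In edgeR 6 of them had an unadjusted p under 0.05, where 11.7% of all genes did.

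In SAP97-cKO 1 to 4 the oligodendrocyte sums were 8075, 4749, 4884 and 4471 CPM. In the same order Sgk1 was at 2574, 2527, 2733 and 2694 normalized read counts and Tsc22d3 at 2564, 2011, 2153 and 1947. In controls 1 to 4 the oligodendrocyte sums were 5738, 8534, 7800 and 9217 CPM. There Sgk1 was at 3926, 4425, 3685 and 3528 normalized read counts and Tsc22d3 at 3498, 2999, 3176 and 3600. Control 1 thus had the lowest oligodendrocyte sum of the controls without having their lowest Tsc22d3. For use in the model, the level of a cell type was the mean log2 CPM of its markers. Of the 10 fibroblast markers, 5 were themselves called lower in this contrast. When the fibroblast level was added to the model, Sgk1 had a log2 fold change of -0.44 (SE 0.17) and Tsc22d3 of -0.70 (SE 0.22). With the oligodendrocyte level in its place these were -0.58 (SE 0.10) and -0.52 (SE 0.11). Dlg1, the targeted gene, was at -0.43 (SE 0.21) with the fibroblast level and -0.80 (SE 0.17) with the oligodendrocyte level. With genotype alone it was at -0.86 (SE 0.12). In neither fit did any gene of the table pass the threshold. The part of the neuronal and mural levels in these values was not tested. Sums for choroid plexus (Ttr, Enpp2 and Kl) ranged most widely, from 454 to 9902 CPM in controls and from 253 to 3293 in SAP97-cKO. All 10 choroid plexus markers were below 0, with a median log2 fold change of -1.42, and 0 had an unadjusted p under 0.05 in edgeR. The endothelial (Flt1, Slco1a4 and Cldn5), astrocyte (Slc1a2, Aldoc and Slc1a3) and microglial (with Csf1r and Cx3cr1) sums overlapped between the genotypes, with 0 markers past the threshold. Of their markers, 9 of 10 endothelial, 3 of 10 astrocyte and 5 of 9 microglial ones were below 0.

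**Figure D5:**
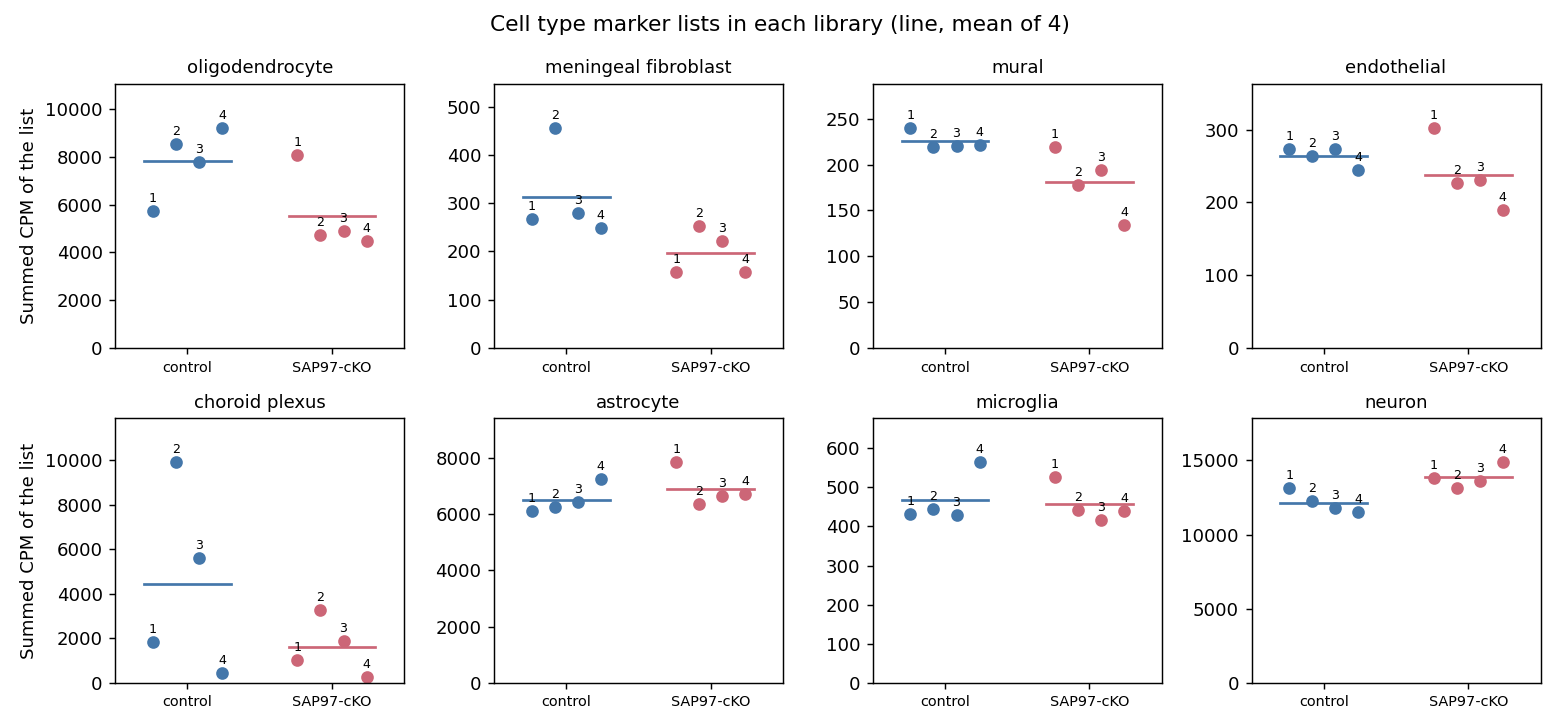
Summed CPM of each cell type's markers (y axes, each starting at 0) in the 4 control and 4 SAP97-cKO libraries, with 1 point per library, numbered by replicate. The neuronal sums are higher and the mural sums lower in SAP97-cKO without overlap, though the nearest libraries of the genotypes almost meet. The other lists overlap.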

How the data were processed

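Hippocampal RNA of 4 male mice per genotype, control and SAP97-cKO, was made into TruSeq libraries and sequenced on an Illumina HiSeq. The authors aligned reads to mm10 with STAR 2.5.3a, resampled all libraries to a similar depth with PORT and deposited a table of read counts per Ensembl gene. Resampling discards reads, so the deposited counts do not show how deeply each library was first sequenced, and counting error is smallest for the abundant genes. The same table holds the log2 fold changes, p-values and q-values of the authors' limma-voom comparison, which were not used here.

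Counts were filtered with filterByExpr (minimum count 10, minimum total 15), scaled by TMM and tested in edgeR 4.0.16 (quasi-likelihood, R 4.3.3), with genotype as the only term. Benjamini-Hochberg adjustment covered all genes tested, with the study's FDR threshold of 0.25. Normalized read counts are counts divided by the TMM-scaled library size and multiplied by the mean library size. RPKM used the summed exon length of a gene. Log2 CPM used a prior count of 2. Pairs of genes were tested by exact permutation (scipy 1.17.1). Alternatives were limma-voom (limma 3.58.1), DESeq2 1.42.0, other scalings and filters, a replicate block, marker levels as covariates, an FDR of 0.05 and leaving out each library. The fits were tested on simulated data. The members and lists were chosen with earlier results of these data known. The text names the 10 members, Dlg1, list genes past the threshold (or the 2 with the smallest p), the 3 most abundant markers of a cell type (some are not reported here) and the 3 genes most like Sgk1 and Tsc22d3. Klf15, Txnip, Nr3c2 and Hsd11b2 fall outside this rule and were named after their values were seen.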

Additional observations from a re-analysis of the deposited data

How the results depend on the processing

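The log2 fold changes of Sgk1 and Tsc22d3 kept their sign in every fit run, at -0.61 to -0.44 and -0.70 to -0.52 over the settings. Counts of called genes moved most. Against 46 lower and 2 higher genes at an FDR under 0.25, DESeq2 called 588 and 445, no scaling beyond library totals 94 and 1, no filter on low counts 89 and 15, and leaving out a library between 0 and 960 lower and between 0 and 715 higher. At an FDR under 0.05 edgeR called 0 genes, against 1907 at an unadjusted p under 0.05, DESeq2 156 and limma-voom 0. With the meningeal fibroblast or the oligodendrocyte covariate 0 genes were called in either direction (566 and 709 at an unadjusted p under 0.05). In these edgeR fits with a covariate, and at an FDR under 0.05 in edgeR with the low-count filter and genotype alone, called members, receptor partners, other induced genes and paralogs all numbered 0. At that FDR edgeR with no filter called 10 genes and with the replicate block 34. The other induced genes called lower were 8 with DESeq2, 1 with DESeq2 size factors in edgeR, 1 with 10 counts required in every library, and 0 to 11 with a library left out. The paralogs called were 2 with DESeq2 and 0 to 2 with a library left out, the members called lower then 0 to 2, the receptor partners 0 to 1, and the metal-responsive genes called higher 0 to 1, or 1 with DESeq2. The pairs past the threshold were 2 without scaling. With a library left out there were 0, but with 144 reassignments a pair that stands alone cannot reach the threshold over 45 pairs.

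Signs turned in 4 of the 10 members. Klf9 was at 0.00034 with DESeq2 and with its size factors in edgeR, 0.0052 with no filter, 0.062 with the oligodendrocyte covariate and -0.070 to 0.071 with a library left out. With the oligodendrocyte covariate Hsd11b1 was at 0.025, Mt1 at 0.083 and Mt2 at 0.080, whereas with the fibroblast covariate they were at -0.86 (SE 0.33), -0.30 (SE 0.24) and -0.34 (SE 0.28), and Zbtb16 at -0.87 (SE 0.35). With a library left out Mt1 ran from -0.11 to 0.10 and Mt2 from -0.20 to 0.066, both highest without control 4. The causes were not tested.

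With the replicate number as a block, 234 genes were called lower and 22 higher, and 5 of the other induced genes lower. Deviations of same-numbered libraries correlated at -0.062, 0.20, 0.090 and 0.26, and 5 of the 8 libraries correlated best with their own number. Choroid plexus sums ran in the same order by number in both genotypes. They were 1836, 9902, 5611 and 454 CPM in controls 1 to 4 and 1005, 3293, 1886 and 253 in SAP97-cKO 1 to 4. No pairing was stated, and what same-numbered libraries shared was not tested.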
